A study of Homo sapiens with 24 samples.

Results

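The cluster of interleukin genes on chromosome 2 holds 9 genes of the interleukin-1 family, IL1A, IL1B, IL37, IL36G, IL36A, IL36B, IL36RN, IL1F10, and IL1RN, in this order along the chromosome. They are 9 of the 20090 protein-coding genes annotated on chromosomes 1 to 22 and X. The region studied extends from the start of IL1A to the end of IL1RN with 50 kb added at each side, chr2:113481502-113941593 in hg19, and covers 460 kb (0.0152% of the length of these chromosomes). It contains 19 of the 30322 sites at which S100A8-Flag or S100A9-Flag was found in the genome. Binding was measured by chromatin immunoprecipitation and sequencing (ChIP-seq) with an antibody against the Flag epitope, in MCF-10A–ER-Src cells, a mammary epithelial line in which an inducible v-Src can be switched on. The tagged S100A8 or S100A9 was expressed from a retroviral vector beside the cells' own genes. Both kinds of cells received for 24 h either 1 µM 4-hydroxytamoxifen (TAM), which activates ER-Src and transforms the cells, or the solvent ethanol (EtOH). The lists of peaks of 11 libraries were used, 2 biological replicates of S100A8 in EtOH and 3 each of S100A8 in TAM, S100A9 in EtOH, and S100A9 in TAM. No numbers of reads come with the lists, so that library depth is unknown.

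S100A8 and S100A9 are calcium-binding proteins that are abundant in myeloid cells and in inflamed epithelium, where they act outside the cell as alarm signals. In the interleukin-1 family, an agonist binds its own receptor chain, the shared accessory chain IL1RAP joins, and MYD88, kinases of the IRAK family, and TRAF6 carry the signal to NF-κB and the MAP kinases, while antagonists occupy the receptor without recruiting the accessory chain. Keratinocytes and other barrier epithelia are a main source of IL1A and of the IL36 cytokines.

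A peak was counted when its q value was at or below 1e-07 and its summit lay in the region, and a confident site required overlapping peaks in at least 2 replicates of a condition. The study's further filter on raw reads at a peak was not applied, because the lists hold no reads, so that numbers of confident sites could be lower with it. The sequences around the summits of the sites that carry the results are shown on the plus strand of hg19, with 50 bases on each side of the summit. Distances are from the nearest annotated transcription start site (TSS) of a member, which for IL1B, with 4 TSSs, is the 5′ end of the gene or an inner TSS. Shown are the 4 sites with the most calling libraries (ties by mean percentile of fold enrichment) apart from that at IL1RN, and 2 further sites chosen after their values were seen, the nearest site upstream of IL1B and the site whose AP-1 motif lies closest to the summit. Capitals mark motif matches, which are CTCF downstream of IL1A, TGATGNAA upstream of IL1A, NF-κB between IL1A and IL1B, TTGCNNAA (on the minus strand) and CGGAAG (on the minus strand) upstream of IL1B, and TGAGTCA (on the minus strand) upstream of IL37.
Site 57624 bp downstream of the IL1A TSS, chr2:113484396-113484496: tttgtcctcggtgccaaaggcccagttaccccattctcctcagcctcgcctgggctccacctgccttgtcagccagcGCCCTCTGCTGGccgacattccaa
Site 9850 bp upstream of IL1A, chr2:113551870-113551970: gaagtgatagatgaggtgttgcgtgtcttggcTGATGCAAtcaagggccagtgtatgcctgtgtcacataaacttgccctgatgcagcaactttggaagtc
Site 21938 bp downstream of an inner IL1B TSS, chr2:113572023-113572123: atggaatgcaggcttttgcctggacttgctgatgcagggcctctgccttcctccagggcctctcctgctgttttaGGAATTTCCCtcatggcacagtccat
Site 2892 bp upstream of IL1B, chr2:113597235-113597335: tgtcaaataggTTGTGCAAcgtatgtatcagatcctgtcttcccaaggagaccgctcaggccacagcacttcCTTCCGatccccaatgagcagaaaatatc
Site 34344 bp upstream of IL37, chr2:113634348-113634448: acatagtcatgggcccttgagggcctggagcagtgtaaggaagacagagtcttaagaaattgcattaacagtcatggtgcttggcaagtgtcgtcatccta
Site 29797 bp upstream of IL37, chr2:113638895-113638995: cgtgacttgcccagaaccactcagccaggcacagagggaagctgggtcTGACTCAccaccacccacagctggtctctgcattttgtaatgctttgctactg
The site at IL1RN is the promoter-proximal site of the cluster, and for it the 200 bases before the inner TSS of IL1RN are shown, with the AP-1 motif, which lies more than 50 bp from the summit, in capitals.
IL1RN upstream, chr2:113875270-113875469: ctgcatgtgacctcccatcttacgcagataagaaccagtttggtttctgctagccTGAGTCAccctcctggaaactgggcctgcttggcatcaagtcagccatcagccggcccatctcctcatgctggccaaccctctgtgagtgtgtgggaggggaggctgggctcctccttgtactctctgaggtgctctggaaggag

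At q ≤ 1e-07, peaks in the cluster were called almost only after TAM. In EtOH, the S100A8 libraries had 0 and 0 peaks in the region, and the S100A9 libraries had 0, 0, and 1. In TAM, the S100A8 libraries had 10, 9, and 9 peaks, and the S100A9 libraries had 16, 12, and 23. Every TAM library thus had more peaks in the region than any EtOH library, and S100A9 in TAM had more than S100A8 in TAM without overlap. The single EtOH peak, of S100A9 replicate 3, lay in the body of IL1RN with a fold enrichment over input of 7.96, and no peak of another library at the threshold overlapped it. TAM libraries averaged 13.2 ± 5.49 peaks (SD, n = 6), whereas EtOH libraries averaged 0.2 ± 0.447 (SD, n = 5). Averaged over both proteins, TAM exceeded EtOH by 13 peaks (two-sided exact permutation test within the proteins, p = 0.01, the smallest that 200 arrangements can give). The adjusted p over the family of 12 permutation tests was 0.06, so that the difference did not pass after adjustment. For single proteins, the difference was 9.33 peaks for S100A8 (exact permutation p = 0.2, the smallest for 2 against 3 libraries) and 16.7 for S100A9 (p = 0.1, the smallest for 3 against 3).

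**Figure D1:**
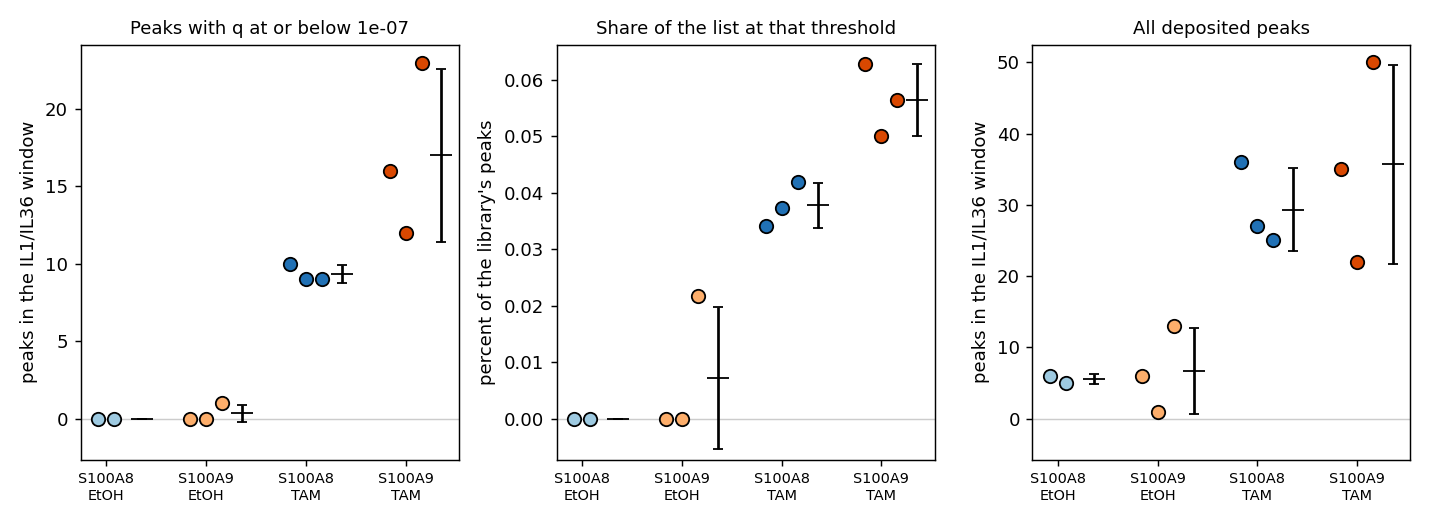
Peaks in the region by library, as the number with q at or below 1e-07 (left), as percent of all peaks of the library at that threshold (middle), and as the number of all deposited peaks (right). Points are libraries and bars are the mean with SD. In the left and middle panels each TAM library lies above each EtOH library, and the S100A9 libraries in TAM, with 12 to 23 peaks, lie above the S100A8 libraries, with 9 to 10.

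TAM lists were longer throughout the genome, with 27540 ± 6960 peaks (SD, n = 6) compared with 3796 ± 1162 (SD, n = 5) in EtOH, and the share of each list was therefore compared as well. In TAM, the region held 0.0340, 0.0373, and 0.0418% of the S100A8 peaks and 0.0628, 0.050, and 0.0565% of the S100A9 peaks. In EtOH, it held 0% in 4 libraries and 0.0218% in S100A9 replicate 3. The groups did not overlap on this scale either. The difference over both proteins was 0.0434 percentage points (two-sided exact permutation test, p = 0.01, adjusted p = 0.06, higher in 6 of 6 TAM libraries than in any EtOH library). Among all deposited peaks, which reach down to q = 0.05, the EtOH libraries had 6 and 5 (S100A8) and 6, 1, and 13 (S100A9) peaks in the region, and the TAM libraries had 36, 27, and 25 (S100A8) and 35, 22, and 50 (S100A9). With these, the difference in the share fell to 0.0175 percentage points (exact permutation p = 0.02), and the groups overlapped, since S100A9 EtOH replicate 3 had 0.0376%, above S100A8 TAM replicate 1 (0.0366%) and S100A9 TAM replicate 2 (0.0373%). In lists of equal length, made of the 1853 peaks of lowest q value in each library, 5 of the 6 TAM libraries had 1 peak in the region, and S100A8 TAM replicate 1 and the EtOH libraries had 0. The difference in peak number was then 0.833 (exact permutation p = 0.03). Whether shorter lists reflect depth or binding cannot be told apart, since the lists give no depth.

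S100A9 exceeded S100A8 in the region by 4 peaks over both treatments (two-sided exact permutation test within the treatments, p = 0.06, adjusted p = 0.15). In TAM alone, it exceeded S100A8 by 7.67 peaks (exact permutation p = 0.1, the smallest possible) and by 0.0187 percentage points of the list (p = 0.1 in the same permutation test). Without S100A9 TAM replicate 3, the difference in peaks was 4.67 in TAM and 2.5 over both treatments. Over both treatments, the difference in the share was 0.0130 percentage points (exact permutation p = 0.06, adjusted p = 0.15). Among all deposited peaks, the share was lower for S100A9 by a small amount, with a difference of -0.00168 percentage points (exact permutation p = 0.82), so that the direction rests on the threshold. The effect of TAM was larger for S100A9 than for S100A8 by 7.33 peaks (exact permutation p = 0.1), and on the share by 0.0114 percentage points (exact permutation p = 0.42). It was 4.33 peaks without S100A9 TAM replicate 3 (exact permutation p = 0.2) and 0.0187 percentage points without S100A9 EtOH replicate 3 (exact permutation p = 0.1). By number of peaks at q ≤ 1e-07, the order of the conditions was S100A9 in TAM, S100A8 in TAM, and then both EtOH conditions, whose values overlapped (exact permutation p = 1). At q ≤ 1e-10 the proteins overlapped in TAM, where S100A8 had 3, 7, and 4 peaks and S100A9 had 7, 7, and 18 (exact permutation p = 0.3). In lists of equal length, the difference in TAM was 0.333 peaks (exact permutation p = 1).

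Region by region, the lists were merged into 38593 regions with a peak in at least 2 libraries, of which 23 lay in the cluster. All 23 had no peak in any EtOH library, which also held for 71.3% of the regions in the genome. Fisher's exact test on the calls of 6 TAM and 5 EtOH libraries, with Benjamini-Hochberg adjustment over all regions, called 0 regions of the genome (0%), and at an unadjusted p under 0.05 it found 5460 with more TAM calls (14.1% of all), of which 1 lay in the cluster (4.35% of the 23). That region was the site 9850 bp upstream of IL1A (Fisher's exact p = 0.00216, adjusted p = 0.0588). For S100A9 against S100A8, the same test called 0 regions (0% of all), and at an unadjusted p under 0.05 it found 22 regions with more S100A9 calls (0.057% of all) and 15 with more S100A8 calls, 0 of them in the cluster. The regions of the cluster, which had no EtOH calls, could not reach that level, since calls in all 3 TAM libraries of one protein and in 0 of the other give p = 0.182 for S100A9 and p = 0.0606 for S100A8 in Fisher's exact test. Peaks of S100A9 without any of S100A8 were found in 9 of the 23 regions (39.1%), compared with 13.0% of all regions, and peaks of S100A8 without any of S100A9 in 0 of 23, compared with 4.71%. Without S100A9 TAM replicate 3, the former were 3 of 15 regions (20%, compared with 5.55% of all) and the latter 1 of 15 (6.67%, compared with 13% of all). Without S100A9 TAM replicate 1 or 2, the former were 5 of 18 regions (27.8%) in both cases, compared with 8.34 and 8.50% of all. The shares of all regions include regions with EtOH peaks, which those of the cluster lack, so that the sets differ. All these shares are descriptive and were not tested.

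The 19 confident sites were unevenly placed. Of these, 4 lay in NT5DC4 or CKAP2L, the genes next to IL1A in the added 50 kb, 13 lay between IL1A and the region before IL36G, 1 lay after IL1F10, and 1 at IL1RN. Intergenic sites numbered 13, and introns held the other 6. A summit within 1500 bp upstream or 250 bp downstream of a TSS was found at 1 site (5.26%), compared with 31.2% of the union sites in the genome. The sites were 174 to 492 bp wide, with a median of 265 bp (342 bp in the genome), and the summits of the libraries at a site lay within a median of 29 bp (1 to 124 bp). Peaks were ranked by fold enrichment within each library, and the percentile of each site was averaged over the TAM libraries that called it. The median of these means was 58.0 (51.4 in the genome). All peaks of the region, including those outside confident sites, had a median percentile of 30.9, 63.6, and 14.7 in the S100A8 libraries and of 25.1, 53.1, and 46.3 in the S100A9 libraries in TAM, and the median thus lay in the lower part of the list in 4 of 6 libraries.

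Both proteins shared a part of these sites. S100A9 in TAM had 18 confident sites and S100A8 in TAM had 9, and 8 were common, which is 44.4% of the S100A9 sites and 88.9% of the S100A8 sites. In the genome, 24943 union sites were confident for S100A9 in TAM and 18228 for S100A8, and 12965 for both, which is 52.0 and 71.1%. At 9 S100A9 sites no S100A8 library in TAM had a peak at the threshold, but at 5 of these an S100A8 list contained a weaker deposited peak. In EtOH, 0 sites were confident, and 9 sites (47.4%) had a weaker deposited peak in at least 1 EtOH library, compared with 65.3% of the union sites in the genome that had any deposited EtOH peak. The numbers by protein depend on single libraries. Without S100A9 TAM replicate 3, the longest list with 40735 peaks, 12 sites were left, S100A9 had 5 and S100A8 had 9, and 2 were common. With an S100A9 library left out, a site required both remaining S100A9 libraries but only 2 of 3 S100A8 libraries. These numbers therefore do not compare the proteins on equal terms. Without S100A9 replicate 1 or 2, S100A9 had 9 or 10 sites, compared with 9 for S100A8, and 4 were common in both cases. In the genome, S100A9 had 16900, 17091, and 12464 sites without replicates 1, 2, and 3. S100A8, with all 3 libraries, then had 18276, 18272, and 18282. Without S100A8 replicate 1, 2, or 3, S100A8 had 4, 4, or 5 sites and 3, 3, or 4 were common. In the genome, S100A8 then had 10113, 10407, and 11324 sites. With 2 libraries, S100A8 thus had no more sites than S100A9 with 2 libraries, both in the cluster and in the genome.

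**Figure D2:**
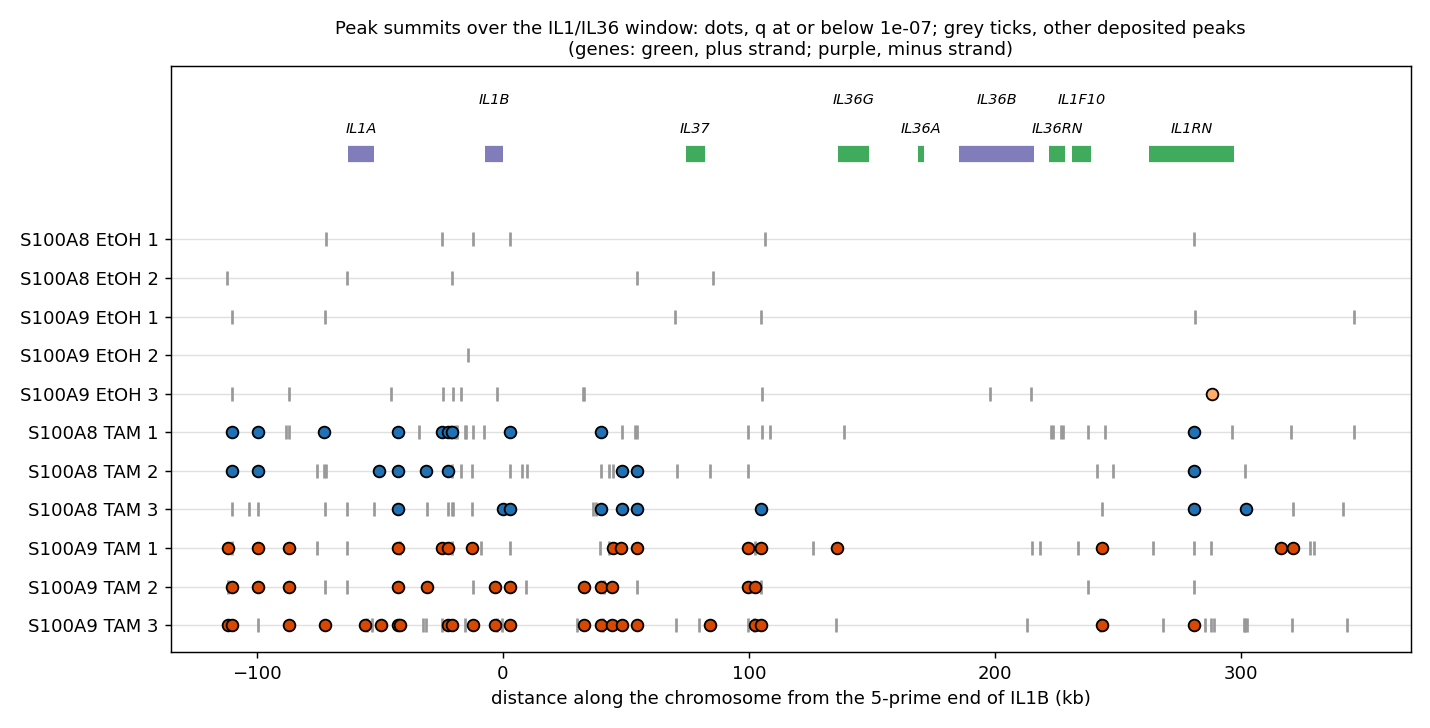
Summits of peaks along the region in each library, as distance from the 5′ end of IL1B in kb. Dots are peaks with q at or below 1e-07, grey ticks are weaker deposited peaks, and bars above are the 9 genes. Dots of the TAM libraries gather from the left edge to IL37 and a little beyond, are absent over the stretch from IL36G to IL1F10, and appear again between IL1F10 and IL1RN, at IL1RN, and beyond it.

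IL1A and IL1B, the agonists of the receptor IL1R1, lie at one end of the cluster. Within the span of the 9 members, binding was densest there. From the start of IL1A to the start of IL37 (137 kb), the S100A8 libraries had 6, 6, and 6 peaks in TAM and the S100A9 libraries 7, 7, and 14, and the EtOH libraries had 0. This is 5.59 ± 2.29 peaks per 100 kb (SD, n = 6). The added 50 kb next to IL1A, outside that span, had 3, 2, and 0 peaks of S100A8 and 3, 3, and 4 of S100A9 in TAM. Within 50 kb of the TSSs of IL1B, S100A8 in TAM had 6, 5, and 5 peaks and S100A9 in TAM had 6, 7, and 12, and no other member had more in any of these libraries. Around IL1A, whose product acts as an alarm signal of damaged epithelium, the numbers were 6, 5, and 1 for S100A8 and 6, 5, and 10 for S100A9. The spread of the libraries covers the difference between IL1A and IL1B, and their windows share most of the sequence between them.

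The site 9850 bp upstream of IL1A was the only confident site of the cluster that all 6 TAM libraries called, as did 14.3% of the union sites in the genome. It lies between IL1A and IL1B, with a fold enrichment of 5.93, 7.88, and 6.33 for S100A8 and of 6.76, 11.6, and 7.12 for S100A9. No EtOH list had even a weaker peak there. Its summits lay within 16 bp, although its mean percentile was modest (35.0). The sequence TGATGNAA, a composite element of ATF4 and CEBP proteins that was added to the search after the sequence had been read, starts at position -18 from the summit. Of all union sites, 2.41% had this sequence within 50 bp of the summit.

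Nearer to IL1B, which encodes the main secreted agonist released by inflammasomes, the site 2892 bp upstream of the 5′ end of the gene was called in 4 TAM libraries. Its fold enrichment was 6.78 in S100A8 replicate 1, 5.36 in S100A8 replicate 3, 6.97 in S100A9 replicate 2, and 7.12 in S100A9 replicate 3. The other TAM libraries had weaker peaks of 5.36 (S100A8) and 6.57 (S100A9), and S100A8 EtOH replicate 1 had a weaker peak of 5.41. It contains matches to TTGCNNAA, the CEBP sequence, and to the ETS sequence CGGAAG. A further site in an intron of IL1B, 2676 bp from an inner TSS, was called in S100A9 replicates 2 and 3 with 10.1 and 8.89. Between IL1A and IL1B, at 21938 bp downstream of an inner IL1B TSS, a site was called with 4.91 and 8.87 in S100A8 replicates 1 and 2 and with 9.38 and 7.87 in S100A9 replicates 1 and 3. It was the only site of the cluster with an NF-κB match, which 2.31% of the union sites had.

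Neither agonist had a confident site at its promoter. At IL1B, S100A8 TAM replicate 3 had a peak with a fold enrichment of 6.33. It lay 19 bp downstream of the 5′ end of the gene and 18 bp upstream of an inner TSS. S100A9 TAM replicate 3 had a weaker peak of 5.35, 69 bp upstream of another inner TSS. At IL1A, only a weaker peak of S100A8 TAM replicate 3 was found, 19 bp downstream of the TSS with a fold enrichment of 4.97 and a −log10 q of 4.61, compared with the threshold of 7. The nearest confident site lay 9850 bp from the TSS of IL1A and 2676 bp from an inner TSS of IL1B.

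IL37, which dampens innate inflammation, lies beyond IL1B. Within 50 kb of its TSSs, S100A8 in TAM had 1, 2, and 4 peaks and S100A9 in TAM had 5, 5, and 8. The site 34344 bp upstream was called with a fold enrichment of 9.11 and 10.5 in S100A8 replicates 1 and 3, and with 6.18 and 12.3 in S100A9 replicates 2 and 3, and it had no EtOH peak. It held no searched motif. The nearest confident site was 19663 bp upstream of the TSS, and 3 sites lay 21363 to 26734 bp downstream of a TSS, past the end of the gene. Of these, the site at 21363 bp had the highest fold enrichment of the cluster, 15.2 in S100A9 replicate 1 (8.42 in replicate 2). S100A9 replicate 3 had only a weaker peak of 3.49 there, and S100A8 replicates 1 and 2 had weaker peaks of 5.29 and 4.60.

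**Figure D3:**
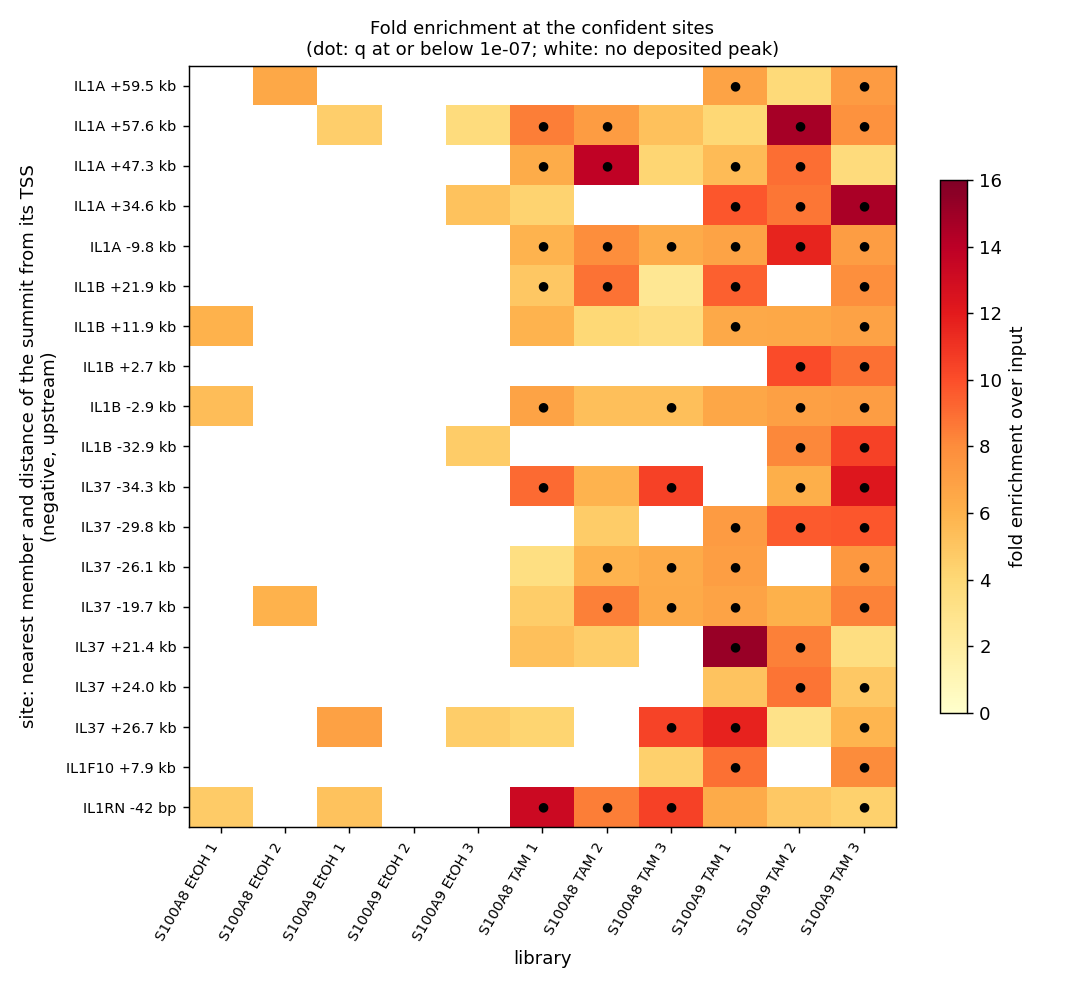
Fold enrichment over input at the 19 confident sites (rows, in order along the chromosome, with the nearest member and the distance of the summit from its nearest TSS) in the 11 libraries (columns). A dot marks q at or below 1e-07, color without a dot a weaker deposited peak, and white no deposited peak. No EtOH column has a dot, the row 9.8 kb upstream of IL1A has a dot in all 6 TAM libraries, and the IL1RN row is strongest in S100A8.

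The IL36 genes stood apart from the IL1 end. IL36A, IL36B, and IL36G encode the agonists of the receptor IL1RL2, and IL36RN encodes their antagonist. From the start of IL36G to the end of IL1F10 (103 kb, a stretch chosen after the map was seen and therefore not tested), 0 peaks at the threshold were found in each of the 11 libraries. Weaker deposited peaks numbered 6, 0, and 0 for S100A8 in TAM, 3, 1, and 1 for S100A9 in TAM, and 2 in S100A9 EtOH replicate 3. The longest distance between neighboring confident sites, 138 kb, spans these genes. Within 50 kb of the TSSs in TAM, IL36A had 0 peaks in 5 libraries and 1 in S100A9 replicate 1, and IL36B and IL36RN each had 0 for S100A8 and 1, 0, and 1 for S100A9.

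IL36G, the IL36 cytokine typical of keratinocytes, was the exception at its promoter. S100A9 TAM replicate 1 had a peak 729 bp upstream of its TSS with a fold enrichment of 6.94, and S100A9 replicate 3 a weaker peak of 5.78. Within 50 kb it had 0, 0, and 1 peaks for S100A8 and 3, 2, and 2 for S100A9, and its nearest confident site was 31276 bp upstream. IL1F10, whose product (IL-38) is thought to act as an antagonist, had its nearest confident site 7930 bp downstream of a TSS, called in S100A9 replicates 1 and 3 with 8.88 and 8.06. By the mean over the TAM libraries, the order of the members was IL1B, IL1A, IL37, IL1RN, IL36G, IL1F10, and then the other IL36 genes, and the range of the libraries of each member overlapped with that of the next. IL1A, for example, had fewer peaks than IL37 in S100A8 replicate 3 and as many in S100A9 replicate 2.

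**Figure D4:**
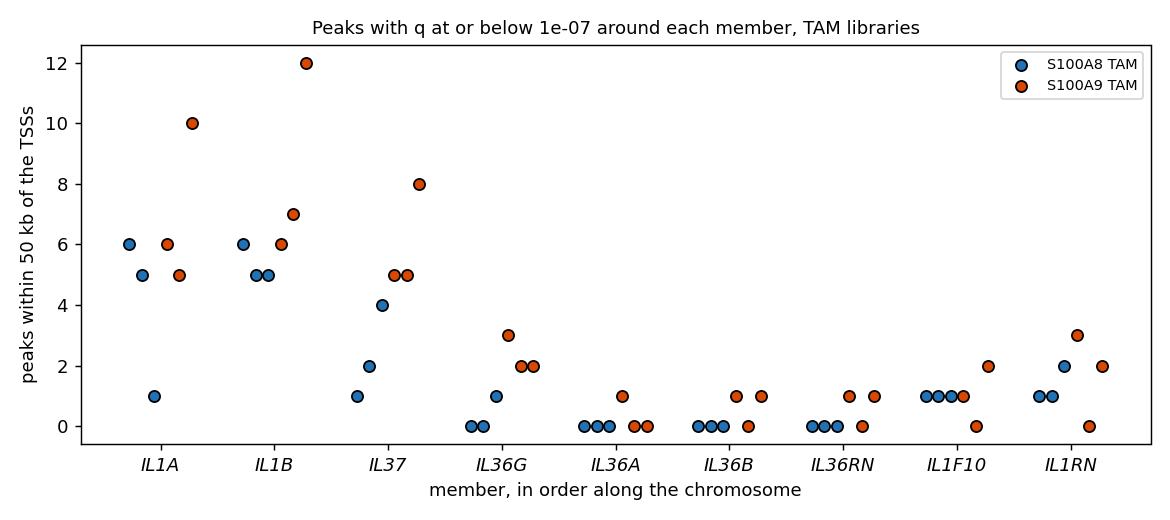
Peaks with q at or below 1e-07 within 50 kb of the TSSs of each member in the 6 TAM libraries. Points are libraries, colored by protein, and neighboring windows overlap. IL1B has 5 to 12 peaks and IL36A 0 to 1.

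IL1RN, the receptor antagonist that blocks IL1A and IL1B, was the 1 member of 9 with a confident site at a promoter in TAM, where 45.7% of all protein-coding genes had such a site. In EtOH, 0 of 9 members had one, compared with 7.35% of all genes. The site, chr2:113875223-113875565, spans the inner TSS and the start of its 5′ untranslated exon, and its summit lies in an intron of the longest transcripts and 42 bp upstream of the inner TSS. The fold enrichment was 13.2, 8.48, and 10.4 in the S100A8 libraries and 4.40 in S100A9 replicate 3, which were at the threshold, and 6.36 and 4.82 in S100A9 replicates 1 and 2, which were not. In EtOH, weaker peaks of 4.74 (S100A8 replicate 1) and 5.14 (S100A9 replicate 1) were found. All S100A8 values in TAM thus lay above all S100A9 values, opposite to the number of peaks in the cluster as a whole, and it was the only site confident for S100A8 alone. Fold enrichment is relative to the input of each library and was not tested between them. Calls were made in 3 of 5 S100A8 and 1 of 6 S100A9 libraries (Fisher's exact p = 0.242, adjusted p = 1), and without EtOH calls the test could not have passed with any calls in TAM. When only the 5′ end of each gene was used as TSS, the site was not promoter-proximal and 0 members had one.

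The AP-1 sequence TGAGTCA starts at position -145 from the inner IL1RN TSS, and it was present in the 200 bases before 2.62% of the 78399 annotated starts of protein-coding genes. It lies outside the window searched at the sites, and within 50 bp of its summit the IL1RN site had no searched motif. Motifs were searched on both strands within 50 bp of each summit. TGAGTCA was present at 5 of 19 sites (26.3%), compared with 19.4% of all union sites and 26.1% of those outside promoters. CTCF, the factor that organizes chromatin loops, had a match at 4 sites (21.1%, compared with 9.32% of all and 11.3% of those outside promoters), which lay in NT5DC4, in CKAP2L, upstream of IL37, and downstream of IL37. ETS (CGGAAG) was found at 2 sites (8.11% of all, 3.88% outside promoters) and TGATGNAA at 2 sites (3.12% outside promoters). CEBP (TTGCNNAA, 7.05% of all, 8.87% outside promoters), STAT (TTCNNNGAA, 2.82 and 3.09%), and NF-κB (2.31 and 2.26%) were found at 1 site each. KLF/SP1 (CCCCGCCC, 5.65% of all, 2.12% outside promoters) and CREB (TGACGTCA, 0.798 and 0.359%) were found at 0 sites. TGATGNAA can overlap with TTGCNNAA. At 7 sites, that at IL1RN included, no searched motif was present. A match describes the letters in these windows and was not related to binding.

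The remaining site described by rule lies 57624 bp downstream of the IL1A TSS, in an intron of NT5DC4. It was called with 8.49 and 7.18 in S100A8 replicates 1 and 2 and with 14.7 and 7.71 in S100A9 replicates 2 and 3. The other TAM libraries had weaker peaks of 5.24 and 4.05, and S100A9 EtOH replicates 1 and 3 had weaker peaks of 4.53 and 3.68.

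Peak density in the region was compared with that of other windows in the TAM libraries. The S100A8 libraries had 2.17, 1.96, and 1.96 peaks per 100 kb and the S100A9 libraries 3.48, 2.61, and 5.00, a mean of 2.86 ± 1.19 (SD, n = 6), and the genome had 0.907 ± 0.229. The window of the CXCL chemokine genes on chromosome 4, a cytokine cluster of similar length, had 1.89 ± 0.823. The window with the genes of the interleukin-1 receptors on chromosome 2, which is longer (819 kb), had 1.4 ± 0.428. These densities cover all sequence of a window and not the named genes alone. The IL1 and IL36 region was denser than either window in 6 of 6 libraries, by 0.972 and 1.46 peaks per 100 kb (two-sided exact sign-flip permutation test in both cases, p = 0.0312, the smallest possible, adjusted p = 0.0625 over 4 tests). In EtOH, the mean of the region did not exceed theirs, with differences of -0.0437 (exact permutation p = 0.5) and -0.152 (exact permutation p = 0.25). The region was lower in 2 and 3 of the 5 EtOH libraries and higher in 1 in both cases. These tests could not have passed, since their smallest possible p was 0.0625.

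**Figure D5:**
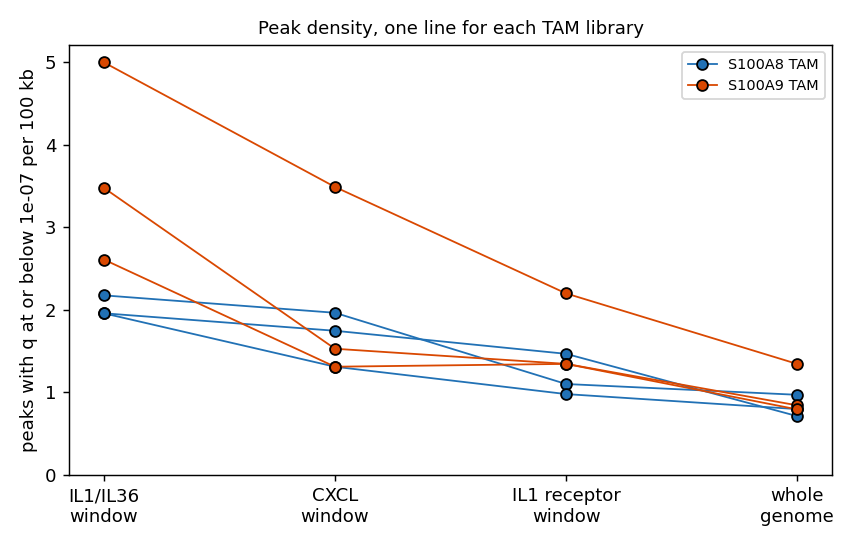
Peaks with q at or below 1e-07 per 100 kb in the IL1 and IL36 region, in the windows of the CXCL genes and of the IL1 receptor genes, and in the whole genome. Each line is a TAM library, colored by protein. Each line is highest at the IL1 and IL36 region, with 1.96 to 5.00 peaks per 100 kb.

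Genes of the wider interleukin-1 pathway, with IL18, IL18BP, and IL33 among them, were counted in the same way. Of 24 genes of the pathway, 13 had a confident promoter site in TAM (54.2%, compared with 45.7% of all genes) and 1, IL1RAP, in EtOH (4.17%, compared with 7.35%). In TAM, they were the receptor chains IL1R1, IL1R2, IL1RAP, IL18R1, and SIGIRR, the adaptors and kinases MYD88, IRAK4, TRAF6, TOLLIP, MAP3K7, TAB1, and TAB2, and the inflammasome sensor NLRP3. The 11 others were IL1RL1, IL1RL2, IL18RAP, IL18, IL18BP, IL33, IRAK1, IRAK2, IRAK3, CASP1, and PYCARD. IL1R1, the receptor of IL1A and IL1B, had its highest value in S100A9 TAM replicate 3, with a fold enrichment of 18.6, and IL1RAP in S100A8 TAM replicate 2, with 18.0. Of the cytokine genes in this list, IL18 and IL33, neither had a confident promoter site, as was the case for 8 of the 9 members of the cluster. Promoter peaks of single libraries were found at IL33 in S100A8 TAM replicate 3 and S100A9 TAM replicate 2, with a fold enrichment of 8.31 and 9.57, and at IL18 in S100A8 TAM replicate 2, with 7.61.

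MCF-10A cells are basal mammary epithelium, and 6 of 8 basal markers (KRT5, KRT17, LAMB3, ITGB4, EGFR, and CDH3) had a promoter site in TAM (75%) and 2 of 8 (KRT17 and LAMB3) in EtOH (25%). Of 8 leukocyte markers, 3 (CD14, ITGAM, and CSF1R) had one in TAM (37.5%) and 0 in EtOH. The shares of all genes were 45.7% in TAM and 7.35% in EtOH. Only binding was measured, and expression of these genes was not analyzed here.

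Over the 11 libraries, the genes whose share of the lists within 50 kb was most like that of the cluster were FBXO42 (Pearson's r = 0.954), CLDN4 (r = 0.952), ARSG (r = 0.951), CDKAL1 (r = 0.950), and RBFOX3 (r = 0.950). They were the top of 9103 genes with at least 20 such peaks, of which 379 had an r of at least 0.8. The libraries share the contrast of TAM with EtOH, and the values describe likeness only.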

How the data were processed

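Reads were aligned by the authors to hg19 with Bowtie2, and peaks were called with MACS2 in each library against its own input (versions not given in the sources used here). In the deposited lists, fold enrichment is a ratio to input at the summit, p and q values are given as −log10, and the integer score and summit offset are MACS2's. The p-value and q-value columns were deposited down to q = 0.05. Only autosomes (1 to 22) and X were considered, at q ≤ 1e-07, and peaks were merged when they overlapped by at least 1 bp. Genes and TSSs were protein-coding transcripts of GENCODE 44 lifted to GRCh37, and the genome was read from the same build. Libraries were compared by exact permutation, two-sided by doubling the smaller tail, and regions by Fisher's exact test with Benjamini-Hochberg adjustment over all regions. The sign-flip tests of density were added after the data were seen. The sites described in full are those at member promoters and the 5 with the most calling libraries, and others described were chosen after their values were seen. Members and lists were chosen with earlier results of these data known. Alternatives were other thresholds, equal list lengths, flanks, windows, promoter definitions, numbers of replicates, and the omission of each library. The filter of the study on raw reads at a peak was not applied, since the lists hold no reads. Python 3.11.15, NumPy 2.4.6, pandas 2.3.3, and SciPy 1.17.1 were used, and the tests were checked on simulated data.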

Additional observations from a re-analysis of the deposited data

How the results depend on the processing

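Of 92 differences under other settings whose exact permutation test could reach an unadjusted p of 0.05, 87 kept their direction and their side of it. The tests of 70 others could not reach it, so that their side was fixed, and 6 of these differences were 0 and had no direction. Replicate numbers did not pair the libraries (the correlation of same-numbered deviations was between -0.0145 and 0.00489 over 5 pairs), and with the number as a block the TAM difference was 13.1 peaks and 0.0424 percentage points (exact sign-flip p = 0.0625, the smallest of 32 arrangements, in both cases). With every peak as deposited, the share of S100A9 minus that of S100A8 was -0.00168 over both treatments, -0.00313 in EtOH, and -0.000242 in TAM. The region then had 29 of the 59598 confident sites in the genome, and 2 members had a promoter site in TAM. The cause was not tested. With an equal number of top peaks, 0 sites and 0 members with a promoter site were left, and the genome had 2227 confident sites. Why none was left in the region was not tested. The region had 4 sites with every replicate required and 34 with at least 1, and 3 members then had a promoter site. With the 5′ end of the gene as the only TSS, 0 members had one. The share of all genes with a promoter site was not computed under these other settings. Nor was the number of sites in the genome computed for the changed numbers of replicates, so that these numbers describe the cluster only. Leaving out 1 library gave 2.5 to 5.25 peaks for S100A9 minus S100A8 and 0.00934 to 0.0148 percentage points, with p = 0.05 in the exact permutation test without S100A9 EtOH replicate 1 (4.08 peaks) or replicate 2 (4.08 peaks). It gave 12 to 19 confident sites, 5 to 18 for S100A9 in TAM, 4 to 9 for S100A8 in TAM, 2 to 4 for both, 3 to 10 regions with S100A9 peaks only and 0 to 1 with S100A8 peaks only (the numbers by protein were added after the data were seen), and 11.5 to 14.2 peaks for TAM minus EtOH (exact permutation p of 0.0167 to 0.025). S100A9 exceeded S100A8 over both treatments by 3 peaks at q ≤ 1e-10 (p = 0.3), by 4.08 peaks and 0.00832 percentage points with flanks of 100 kb (p = 0.18 and 0.27), and by 0.167 peaks in lists of equal length (p = 1, exact permutation tests in all cases). The excess of the TAM effect of S100A9 over that of S100A8, recomputed after the data were seen, was 4.33 to 9.83 peaks and 0.00781 to 0.0187 percentage points with 1 library left out, and 0.00288 percentage points with every deposited peak (exact permutation p = 0.9). At q ≤ 1e-10, TAM exceeded EtOH by 7.67 peaks (exact permutation p = 0.01). Fisher's exact test, for more TAM calls or between the proteins, called 0 regions of the cluster and of the genome in each setting run. In lists of equal length, the cluster had no region to test. Numbers of peaks depend on a depth that the lists do not give.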

Other observations

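Besides the 23 regions with peaks in at least 2 libraries, 11 regions of the cluster had a peak at the threshold in 1 library only. S100A9 TAM replicate 3 had 4 of them, S100A9 TAM replicate 1 had 3, S100A8 TAM replicate 3 had 2, and S100A8 TAM replicate 2 and S100A9 EtOH replicate 3 had 1 each. They include the peaks at the promoters of IL1B and IL36G and 3 peaks beyond the end of IL1RN, 2 of S100A9 replicate 1 and 1 of S100A8 replicate 3, between IL1RN and the start of PSD4 or just past that start.

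In the Fisher's exact test over 11 libraries, a region called in 6 of 6 TAM libraries and 0 of 5 EtOH libraries had an adjusted p of 0.0588, the lowest that this test gave. In the genome, 1421 regions had that pattern (3.68% of the regions in at least 2 libraries), and 1 of the 23 in the cluster did (4.35%).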
